A study of Mus musculus with 10 samples.

Results

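Messenger RNA of 10 integrin genes was followed in mouse natural killer (NK) cells and in whole spleen: the alpha subunits Itgam, Itgal, Itgax, Itga1, Itga2, Itga4 and Itgae and the beta subunits Itgb1, Itgb2 and Itgb7. The genes were taken as every probe set whose platform annotation names 1 of these symbols and no other gene. This gave 22 probe sets for 10 of the 18193 genes on the array, and 21 of the 22 were above the detection floor on at least 1 array. All samples came from C57Bl/6 wild-type mice, of ages the labels do not state. Resting NK cells (3 arrays) were sorted from spleen as NK1.1+CD3- cells, at a purity the labels put above 99%. IL-15 NK cells (3 arrays) were cells of the same sort cultured for 24 h with 100 ng/mL of recombinant mouse IL-15, a cytokine that NK cells need to survive and that activates them. Splenocytes (4 arrays) were unsorted spleen cells, and their 4 chips came from 2 biological samples. No NK cells cultured without IL-15 were analysed here, so the cytokine and the time in culture cannot be told apart. NK RNA was amplified in 2 cycles and splenocyte RNA in 1, so amplification and cell source cannot be told apart in any comparison with splenocytes. Nothing in the labels says that NK arrays of one group came from separate mice, so p-values measure the spread between these samples, which may be technical. In bulk RNA, fewer cells of a type and less RNA per cell cannot be told apart.

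Integrins are surface receptors made of 1 alpha and 1 beta chain that bind other cells or the extracellular matrix. Their grip is switched on from inside the cell, when talin and kindlin bind the beta chain's tail downstream of the small GTPase Rap1. The beta chain encoded by Itgb2 pairs with the products of Itgal, Itgam and Itgax to form LFA-1, Mac-1 and CD11c/CD18, which bind ICAMs and other ligands. NK cells use LFA-1 to attach to target cells. The chain encoded by Itgb1 pairs with those of Itga1 and Itga2 (CD49a and CD49b), which bind collagens, and with that of Itga4 (CD49d), which binds VCAM-1 and fibronectin. The chain encoded by Itgb7 pairs with that of Itga4 to bind the gut addressin MAdCAM-1, or with that of Itgae (CD103) to bind E-cadherin. In mouse NK cells CD49b and CD11b are used as markers of the lineage and of its maturation, and CD49a marks tissue-resident NK cells and other innate lymphocytes.

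Promoter sequences, 250 bases before to 50 bases after the RefSeq gene start on build GRCm38.p6, were held for 7 of the 10 genes. There was no entry for Itgal, Itgb2 and Itgae. Of the 7, 4 are shown because the results below turn on them: Itga4, which fell in every probe set, Itgam and Itgax, neighbours on chromosome 7 that both fell, and Itga1, which rose. Itga4 lies at chr2:79255176-79255475, Itgam at chr7:128062390-128062689 and Itgax at chr7:128129300-128129599, all on the plus strand, and Itga1 at chr13:115101915-115102214 on the minus strand. Each is printed 5′ to 3′ on the gene's strand, and capitals mark matches on either strand to 5 short motifs of factors active in leukocytes or at many promoters: GAGGAA (PU.1-type ETS), TGTGGT (RUNX), GGGCGG (GC box), CACCTG (ZEB-type E-box) and TTCNNNGAA (STAT-type palindrome).
Itga4: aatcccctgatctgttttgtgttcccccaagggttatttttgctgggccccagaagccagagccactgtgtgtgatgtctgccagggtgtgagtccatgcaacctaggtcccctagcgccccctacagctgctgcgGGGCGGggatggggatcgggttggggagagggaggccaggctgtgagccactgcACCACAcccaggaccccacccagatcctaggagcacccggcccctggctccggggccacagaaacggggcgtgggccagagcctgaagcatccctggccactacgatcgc
Itgam: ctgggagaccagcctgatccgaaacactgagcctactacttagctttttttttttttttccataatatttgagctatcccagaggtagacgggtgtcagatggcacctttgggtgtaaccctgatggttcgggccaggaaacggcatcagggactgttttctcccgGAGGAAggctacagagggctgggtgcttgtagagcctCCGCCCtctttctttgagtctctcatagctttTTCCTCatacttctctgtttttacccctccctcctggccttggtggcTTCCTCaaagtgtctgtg
Itgax: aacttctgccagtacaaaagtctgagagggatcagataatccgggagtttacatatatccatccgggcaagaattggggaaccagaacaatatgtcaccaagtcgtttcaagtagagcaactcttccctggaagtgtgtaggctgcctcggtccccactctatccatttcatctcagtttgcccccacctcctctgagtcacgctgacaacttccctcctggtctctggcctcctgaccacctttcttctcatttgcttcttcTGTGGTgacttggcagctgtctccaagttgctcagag
Itga1: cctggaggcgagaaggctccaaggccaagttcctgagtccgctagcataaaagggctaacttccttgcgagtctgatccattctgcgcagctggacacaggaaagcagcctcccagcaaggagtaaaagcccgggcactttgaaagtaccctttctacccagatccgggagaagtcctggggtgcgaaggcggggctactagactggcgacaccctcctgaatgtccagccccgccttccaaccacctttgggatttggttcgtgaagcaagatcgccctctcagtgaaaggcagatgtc
The Itgam window held GAGGAA 3 times and GGGCGG 1 time, the Itgax window TGTGGT 1 time, the Itga4 window TGTGGT 1 time and GGGCGG 1 time, and the Itga1 window none of the 5. No matches overlapped in these windows. Among all 32851 promoter windows of this length, 28.3% held GAGGAA, 16.8% TGTGGT, 35.7% GGGCGG, 20.2% CACCTG and 8.3% TTCNNNGAA. These matches describe letters and are not shown to be bound sites.

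The arrays of the 3 groups differed in ways that bear on all values below. Signals are linear intensities scaled to the same trimmed mean on every array, and 179.8 signal units is the detection floor, below which a signal counts as not above background. The share of probe sets above it ranged from 57.8% to 61.7% for resting NK arrays, from 51.1% to 56.5% for IL-15 NK arrays and from 61.2% to 62.4% for splenocyte chips. The ratio of 3′ to 5′ control probe signal for Gapdh, a measure of RNA or amplified-product length, was 5.88 to 9.54, 2.899 to 3.81 and 1.004 to 1.39 in the same order. All 12 NK-cell markers measured were above the floor in every group, and their summed signal ran from 625375 to 745610 for resting NK, from 455445 to 507446 for IL-15 NK and from 57993 to 77728 for splenocyte arrays. Resting NK arrays also carried signal of other spleen cells: 12 B-cell markers summed to 12251 to 60208, against 5171 to 6963 on the IL-15 NK arrays and 334507 to 413331 on the splenocyte chips. For 14 macrophage and monocyte markers the sums were 7441 to 28159, 1474 to 2107 and 209779 to 247507.

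After IL-15 culture the integrin messages of NK cells changed in both directions, and most fell. Itga4, Itgam, Itgae, Itgax, Itga2, Itgb2 and Itgal were lower in IL-15 NK cells, by 1.51-fold for Itgal to 5.17-fold for Itga4. Itga1 was 3.69-fold higher. Itgb1 and Itgb7 did not pass the test. Thus 8 of 10 integrins passed (limma, Benjamini-Hochberg adjusted p under 0.05 over 11433 genes), 1 higher and 7 lower, where 26.3% of all genes tested passed, 14.2% higher and 12.1% lower. In 7 of 10 integrins the arrays of both groups did not overlap, as in 42.2% of all genes tested (20.5% higher, 21.6% lower). The median log2 difference was -0.79 over the 10 integrins and -0.09 over all genes. When arrays were scaled to a common median instead of a common mean, the median over all genes became 0.21 and the share of calls that were higher rose from 53.9% to 81.2%. On that scale Itga4, Itgae and Itgam still passed as lower, Itga1 and Itgb1 passed as higher, and Itgal, Itgb2, Itgax and Itga2 kept a negative difference but did not pass. Without a filter on low signals, 2 integrins passed, Itga4 and Itgal, both lower, and 1646 genes passed in all against 3003.

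**Figure D1:**
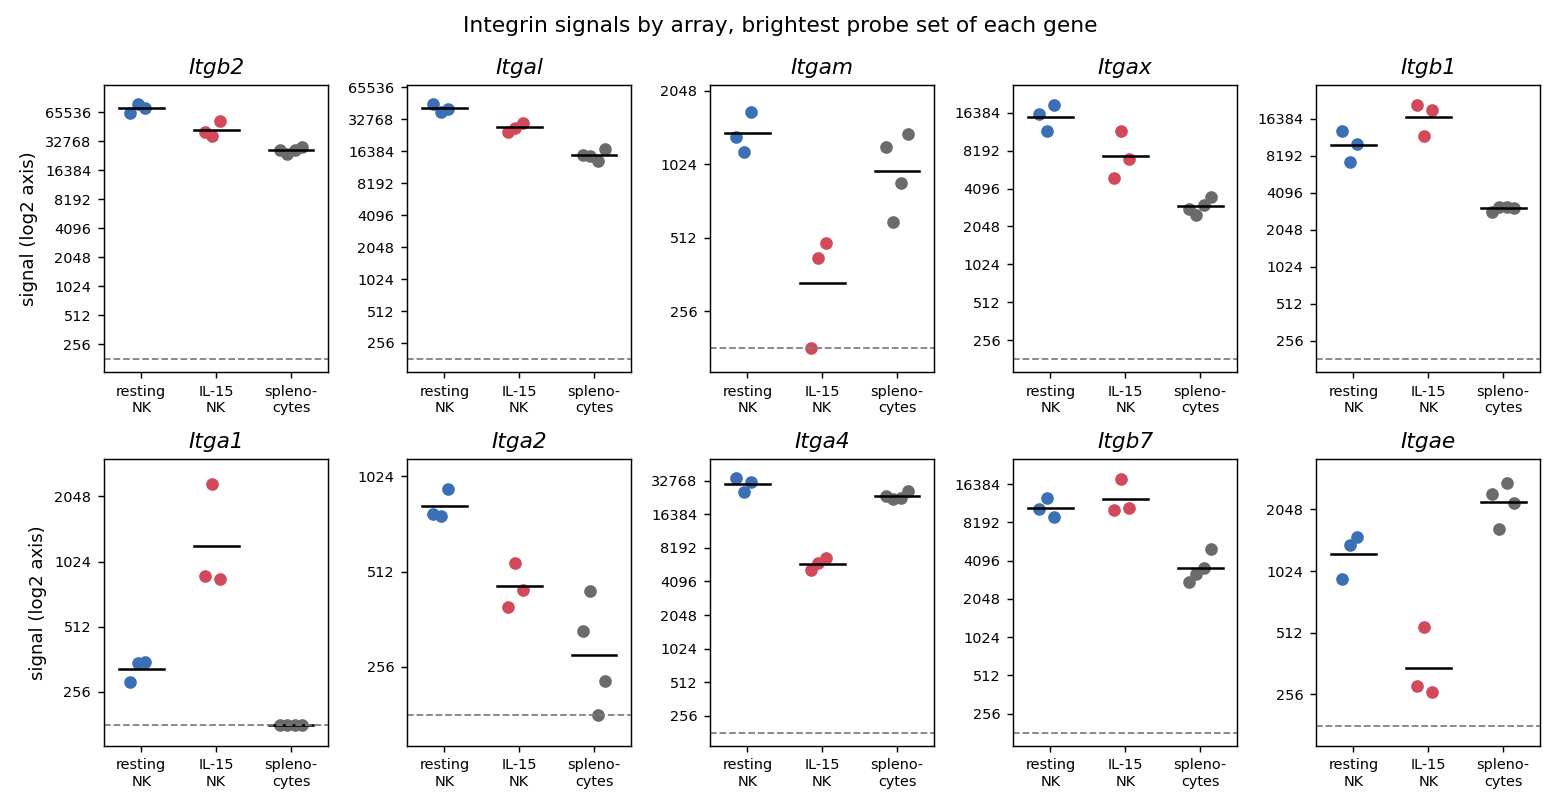
Signal of the brightest probe set of each of the 10 integrins in signal units on a log2 axis, with a scale of its own for each gene. Each point is 1 array, signals under the floor are drawn at the floor, black lines are group means of log2 signals and the dashed line is the detection floor of 179.8. For Itga4 the 3 IL-15 NK arrays lie at 5220 to 6626, below all 7 other arrays, and for Itga1 at 850 to 2341, above them.

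Itga4, the alpha chain of VLA-4, had the largest fold among the 10. Its signal was 34486, 26118 and 31880 in resting NK arrays 1 to 3 and 5220, 6024 and 6626 in IL-15 NK arrays 1 to 3. Splenocyte chips 1 to 4 read 24063, 22647, 22983 and 26489. All 3 IL-15 arrays lay well below every other array, while the resting NK and splenocyte ranges overlapped. With IL-15 it fell by 2.37 ± 0.18 (SE) log2 units (5.17-fold, limma adjusted p = 2.67e-05), from a mean of 14.90 ± 0.21 to 12.53 ± 0.17 (log2 signal, SD, n = 3 each). All 5 probe sets of Itga4 fell when each was tested singly, by 2.08 to 2.73 on the log2 scale. Both extremes are lower bounds. The probe set at 2.73 was under the floor in every IL-15 sample, so its test rested on the resting arrays alone. For the one at 2.08, IL-15 array 1 read 149, under the floor. The Itga4 call held in 18 of 18 alternative settings, with limma adjusted p-values up to 0.00606.

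The genes of the Itgb2 family fell together by unequal amounts. Itgb2 itself, the shared beta chain, read 63747, 80458 and 72380 in resting NK arrays and 40440, 37180 and 52726 in IL-15 NK arrays. The groups did not overlap, and the fall was 0.74 ± 0.19 in log2 units (1.67-fold, limma adjusted p = 0.0179). Itgal, the alpha chain of LFA-1, read 45426, 38171 and 41120 in resting and 25026, 27163 and 30316 in IL-15 NK cells. Its groups did not overlap either, and it fell by 0.60 ± 0.17 on the log2 scale (1.51-fold, adjusted p = 0.0242). The second Itgal probe set read 1621, 1302 and 1318 against 898, 629 and 1336, with an overlap of the groups and a log2 difference of -0.63 that did not pass (adjusted p = 0.176). Itgb2 passed in 14 of 18 alternatives and Itgal in 10 of 18. Of the arrays left out singly, IL-15 NK array 1 (Itgb2 adjusted p = 0.0672) or 2 (0.0665) ended the Itgb2 call. The Itgal call was lost without resting NK array 1 (0.0896) or IL-15 NK array 1 (0.0968), 2 (0.0628) or 3 (0.0547).

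Itgam, the alpha chain of Mac-1, read 1325, 1150 and 1682 in resting NK arrays. In IL-15 NK arrays it read 147, 424 and 487, the first of these under the floor. The highest IL-15 array was well below the lowest resting one, and the gene was at least 4.10-fold lower (log2 difference -2.04 ± 0.39, limma adjusted p = 0.00402). Itgax, the CD11c chain, read 15971, 11690 and 18801 in resting and 4933, 11845 and 7046 in IL-15 NK cells. IL-15 array 2 lay just above resting array 2, so the groups overlapped. The fall of Itgax was 1.03 ± 0.30 on the log2 scale (2.04-fold, adjusted p = 0.0299), and the call held in 10 of 18 alternatives. It was lost without resting NK array 1 (adjusted p = 0.0734) or 3 (0.0829) and without IL-15 NK array 1 (0.108) or 3 (0.0895). Itgam held in 17 of 18, the exception being no filter on low signals (0.0729).

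Macrophages and dendritic cells also express Itgam and Itgax, and markers of both were read on the same arrays. Of 7 macrophage and monocyte markers tested, 6 were lower in IL-15 NK cells, where 12.1% of all genes tested were lower. Of these, Lyz1, Mpeg1 and Cybb were tested through the resting NK arrays alone, so the count partly reflects which markers could be tested. Across the 14 markers measured, the median signal as a percentage of the splenocyte mean was 3.95, 6.99 and 5.83 in resting NK arrays and 0.833, 0.845 and 1.34 in IL-15 NK arrays, where Lyz1, Mpeg1, C1qa, C1qb, C1qc, Cd14, Marco, Fcgr1 and Cybb were at the floor on every array. For 9 dendritic-cell markers this percentage was 19.5, 29.4 and 12.3 in resting and 4.11, 16.9 and 6.59 in IL-15 NK arrays, with Xcr1, Siglech, Cd209a and Ccr7 at the floor in all IL-15 arrays, and 2 of 5 tested fell. Resting NK signal of Itgax was 11690 to 18801, above the splenocyte range of 2515 to 3516. The part of these cells in the falls of Itgam and Itgax was not tested. B-cell markers were at 11.6%, 8.83% and 1.07% of the splenocyte mean in resting NK arrays 1 to 3. Without resting arrays 1 and 2, a setting chosen after seeing these values, 5 integrins were still lower (Itga4, Itgam, Itgae, Itgax and Itgb2) and Itga1 was higher, while Itgal (adjusted p = 0.0704) and Itga2 (0.0909) did not pass. The single resting array left is then assumed to vary like the others.

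Among the chains that bind collagen, Itga1 and Itga2 moved in opposite directions, although the genes lie next to each other on chromosome 13 with 0 protein-coding genes starting between them. Itga1 read 285, 346 and 351 in resting NK arrays and 874, 2341 and 850 in IL-15 NK arrays. All 4 splenocyte chips were under the floor, at 14.2 to 159. The rise with IL-15 was 1.88 ± 0.40 log2 units (3.69-fold, limma adjusted p = 0.00667), with no overlap of the groups. IL-15 array 2 stood above the other two, and without it the log2 difference was 1.403 (adjusted p = 0.014). Averaging both Itga1 probe sets gave 1.06 (adjusted p = 0.0378). The second Itga1 probe set was under the floor on 8 of 10 arrays and was not tested singly. Itga2 read 780, 770 and 933 in resting and 396, 546 and 449 in IL-15 NK cells. The groups did not overlap, and the gene was lower by a log2 difference of -0.84 ± 0.27 (1.79-fold, adjusted p = 0.0455). This call held in 5 of 18 alternatives. Leaving out any single array but resting NK array 2 ended it, with adjusted p-values of 0.0572 to 0.144.

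Itgb1, the partner of Itga1, Itga2 and Itga4, read 13149, 7300 and 10278 in resting and 21199, 11960 and 19328 in IL-15 NK cells. The lowest IL-15 array lay between resting arrays, and the log2 difference of 0.77 ± 0.27 (95% interval 0.17 to 1.37) did not pass over all genes (limma adjusted p = 0.0590). A second bright Itgb1 probe set read 8667, 7098 and 6937 against 13678, 8777 and 12222, with no overlap and a log2 difference of 0.59 (adjusted p = 0.0627). Of the 6 Itgb1 probe sets, 4 were tested singly and 0 passed (limma; 2 of the 4 had an unadjusted p under 0.05). The brightest passed in 5 of 18 alternatives, among them the common-median scaling (log2 difference 1.12, adjusted p = 0.00380), and when resting NK array 1 (adjusted p = 0.0356) or IL-15 NK array 2 (0.0226) was left out.

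The Itgb7 pair split. Itgb7 read 10450, 12779 and 9042 in resting and 10159, 17928 and 10558 in IL-15 NK cells. The ranges overlapped, and the log2 difference of 0.22 ± 0.24 did not pass (95% interval -0.31 to 0.76, limma adjusted p = 0.537). Itgae, the chain of CD103, read 939, 1366 and 1498 in resting and 282, 544 and 264 in IL-15 NK cells. Every IL-15 array lay below every resting one, and Itgae fell by 1.86 ± 0.35 log2 units (3.62-fold, adjusted p = 0.00379). Its second probe set was at least 2.17-fold lower (adjusted p = 0.0475 over all probe sets), with 1 of 3 IL-15 arrays above the floor. In that probe set the groups overlapped, as IL-15 array 2 read 318 and resting array 1 read 295. T cells and dendritic cells also carry CD103. T-cell markers, 12 in all, summed to 12751 to 19893 on resting and 6500 to 8433 on IL-15 NK arrays, against 76722 to 94078 on splenocyte chips. Their median percentage of the splenocyte mean was 8.72, 10.2 and 2.30 on resting and 1.88, 2.24 and 3.65 on IL-15 NK arrays. Of 7 tested 2 fell, where 12.1% of all genes tested were lower. Cd3e, Cd4, Cd8b1 and Cd6 were at the floor on every IL-15 array. The part of T cells and dendritic cells in the fall of Itgae was not tested. Taking every probe set singly, 12 of 19 integrin probe sets tested passed, 1 higher and 11 lower, where 24.8% of all probe sets tested passed (11% higher, 13.8% lower).

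**Figure D2:**
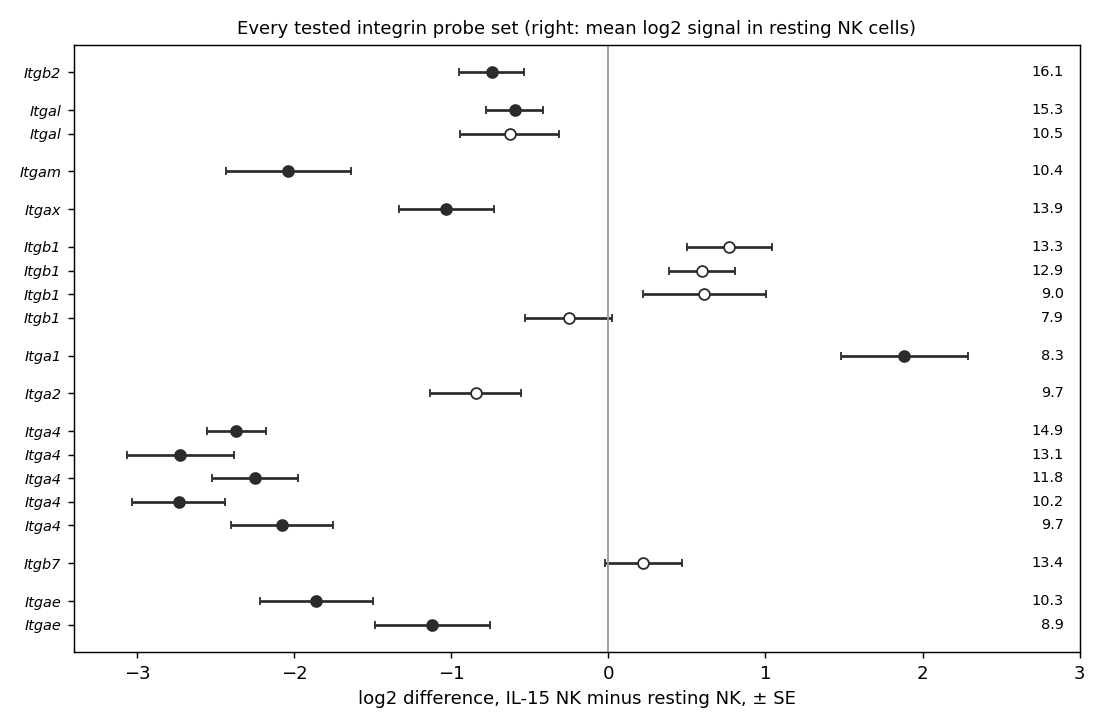
Log2 difference, IL-15 NK minus resting NK cells, of the 19 integrin probe sets that were tested, 1 row per probe set, with bars of 1 SE and the mean log2 signal in resting NK cells at the right. Filled points passed limma's test over all probe sets. The 5 Itga4 probe sets lie between -2.73 and -2.08, where both ends are bounds set by the floor, and those of Itgb1 are all open.

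**Figure D3:**
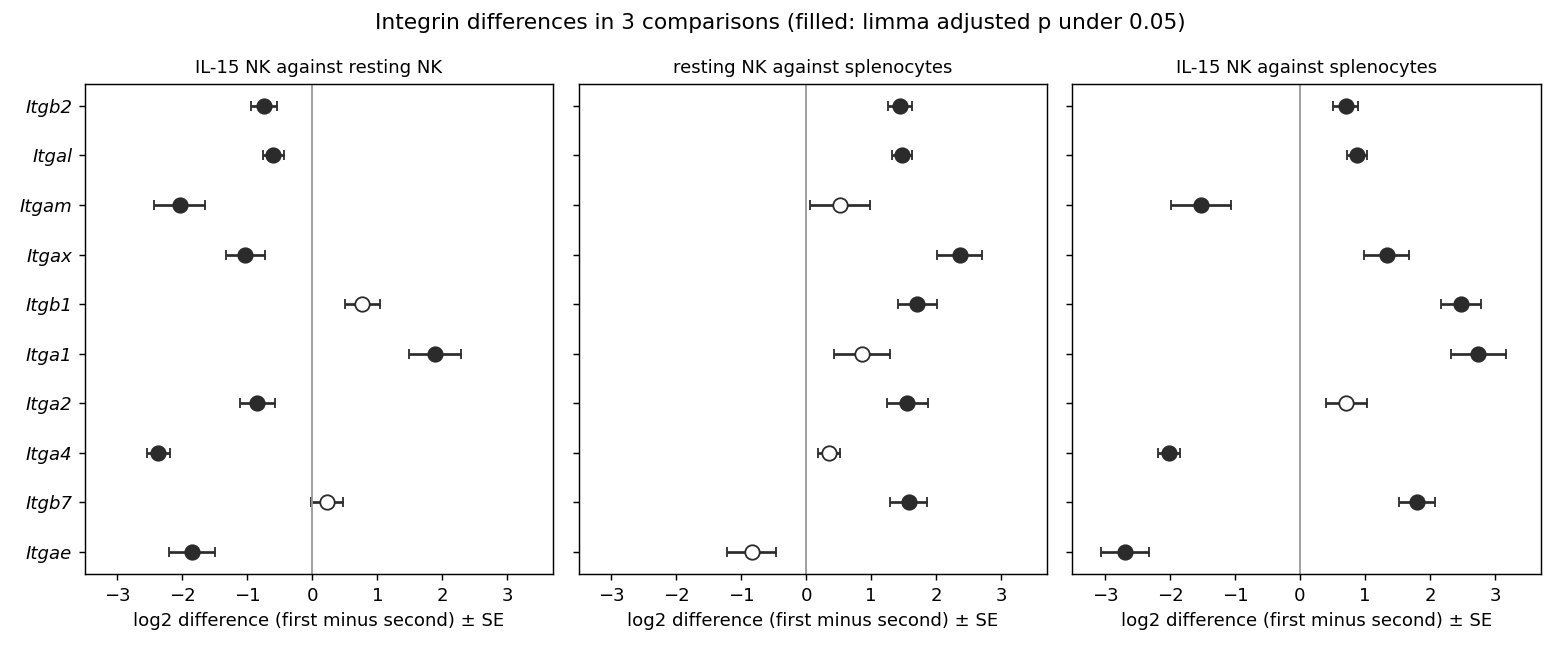
Log2 difference of each integrin in the 3 comparisons, first group minus second, with bars of 1 SE; filled points passed limma's test at an adjusted p under 0.05 and open points did not. In IL-15 NK against resting NK cells Itga1 lies at 1.88 and Itga4 at -2.37, and against splenocytes 6 of 10 integrins were higher in resting NK cells.

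Resting NK cells carried more integrin message than whole spleen for 6 of the 10 genes. Itgax was 5.15-fold higher, Itgb1 3.26-fold, Itgb7 2.99-fold, Itga2 at least 2.95-fold, Itgal 2.78-fold and Itgb2 2.72-fold. These 6, all higher, were the integrins that passed (limma), where 38.6% of all genes tested passed, 17.1% higher and 21.5% lower. The groups did not overlap in 8 of 10, with 7 higher and Itgae lower in resting NK cells, as in 49.7% of all genes tested (22.7% higher, 27% lower). Taken singly, 10 of 18 integrin probe sets passed, 9 higher and 1 lower, where 37% of all probe sets passed (15.5% higher, 21.4% lower). Itgam, Itga4, Itgae and Itga1 did not pass. Each splenocyte p-value below is the largest over the 3 ways to pair the 4 chips. Comparisons with splenocytes share the splenocyte chips, and each NK group also enters the comparison above.

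The Itgb2 family differed among its alpha chains here. In splenocyte chips 1 to 4 Itgal read 14979, 14854, 13121 and 17073, below all resting NK arrays, with a log2 difference of 1.47 ± 0.15 (limma adjusted p = 0.000149). Itgb2 read 26696, 24356, 26321 and 28334, and its log2 difference was 1.45 ± 0.19 (adjusted p = 0.000532). Itgax read 2822, 2515, 3035 and 3516 and had the largest difference of the 10, 2.37 ± 0.35 (adjusted p = 0.00111). All 3 were higher in resting NK cells in 19 of 19 alternatives. Itgam, which macrophages and neutrophils of the spleen also express, read 1208, 595, 853 and 1361, overlapping the resting NK range, and its log2 difference of 0.52 ± 0.46 did not pass (95% interval -0.54 to 1.58, adjusted p = 0.419).

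Itgb1 read 2841, 3134, 3144 and 3096 in splenocytes, all below resting NK cells, and had a log2 difference of 1.71 ± 0.30 in favour of the resting NK cells (adjusted p = 0.00270, limma). Itgb7 read 2754, 3238, 3592 and 5026, also below all resting arrays, with a log2 difference of 1.58 ± 0.28 (adjusted p = 0.00252). Itga2 read 332, 444, 120 and 230, with 3 of 4 chips above the floor, and its difference was 1.56 ± 0.31 (adjusted p = 0.00452). The 3 calls held in 19 of 19 alternatives. Itga1, under the floor in splenocytes, was at least 1.81-fold higher, which did not pass (adjusted p = 0.150).

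For Itga4 the probe sets disagreed between resting NK cells and splenocytes. The brightest gave a log2 difference of 0.35 ± 0.17 that did not pass (95% interval -0.04 to 0.74, limma adjusted p = 0.138). Tested singly, 2 of the 5 were higher in resting NK cells, by log2 differences of 1.04 (adjusted p = 0.0272) and 2.505 (at least 5.68-fold, adjusted p = 0.000185). Another had a difference of -0.74 and did not pass (adjusted p = 0.134). Itgae read 2430, 1647, 2748 and 2198 in splenocytes, above every resting array. Its log2 difference was -0.83 ± 0.38 and did not pass (95% interval -1.70 to 0.03, adjusted p = 0.118), while its second probe set, at -1.23, was lower in resting NK cells (adjusted p = 0.0419 over all probe sets).

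IL-15 NK cells stood apart from splenocytes in 9 of the 10 genes, 6 higher and 3 lower, where 44.3% of all genes passed, 20.8% higher and 23.5% lower. The groups did not overlap in the same count, 6 higher and 3 lower, where 57.6% of all genes did not overlap (27.8% higher, 29.8% lower). Taken singly, 14 of 17 integrin probe sets passed, 7 higher and 7 lower, where 40.7% of all probe sets passed (16% higher, 24.8% lower). Itga1 exceeded the splenocyte level by 6.69-fold or more (limma adjusted p = 0.00122). All its splenocyte chips lay under the floor, so it was tested through the IL-15 NK arrays alone. Its splenocyte spread was set by the floor, and the counts of 9 and 6 genes include it. Itgb1 exceeded splenocytes by 5.57-fold (adjusted p = 0.000364), Itgb7 by 3.49-fold (0.00112), Itgax by 2.52-fold (0.0152), Itgal by 1.83-fold (0.00185) and Itgb2 by 1.63-fold (0.0165). Itgae was 6.46-fold lower (0.000726), Itga4 4.05-fold lower (4.84e-05) and Itgam at least 2.87-fold lower (0.0279). Itga2 overlapped the splenocyte range and did not pass (log2 difference 0.72, 95% interval 0.01 to 1.42, adjusted p = 0.0938). The Itgam call was lost in 6 of 18 alternatives, among them both other scalings (adjusted p = 0.116 and 0.137) and splenocyte chip 1 (0.0524) or 4 (0.0564) left out. The Itgal call was lost when its 2 probe sets were averaged (log2 difference 0.32, adjusted p = 0.299). Common-median scaling moved the median of all genes from -0.06 to 0.13 between resting NK cells and splenocytes and from -0.10 to 0.38 between IL-15 NK cells and splenocytes. The share of calls that were higher went from 44.3% to 57.5% in the first and from 47.0% to 73.3% in the second. In the first 35.6% of calls were higher when the probe sets of a gene were averaged.

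The 3 groups can be put in order for each gene by the brightest probe set. For Itgal and Itgb2 the order was resting NK, IL-15 NK, splenocytes, and every step passed the test. Itgax had the same order and every step passed, although its NK groups overlapped. Itga2 had that order too, but IL-15 NK cells and splenocytes did not differ beyond the test. Itgb1 and Itgb7 were highest in IL-15 NK cells and lowest in splenocytes, and the step between the NK groups did not pass. Itga1 was highest in IL-15 NK cells. Its resting NK and splenocyte arrays did not overlap, but that step did not pass. Itga4 and Itgam were highest in resting NK cells and lowest in IL-15 NK cells, and the step from resting NK cells to splenocytes did not pass. Itgae was highest in splenocytes and lowest in IL-15 NK cells. Its resting NK and splenocyte arrays did not overlap, but that step did not pass.

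Other genes of the integrin system were taken from 5 lists. Of 15 other integrin subunits on the array 8 were tested for the effect of IL-15 culture, with 1 higher and 3 lower (median log2 difference -0.78). Each count of these lists stands against all genes tested, of which 14.2% were higher and 12.1% lower with a median of -0.09, and under common-median scaling 2468 of 12165 were higher and 570 lower with a median of 0.21. Itgb3, the beta chain of the vitronectin receptor, read 1039, 892 and 664 in resting and 2929, 1438 and 1694 in IL-15 NK arrays, without overlap, and was 2.26-fold higher (limma adjusted p = 0.0225). Itgav, its alpha partner, read 10526, 10888 and 15192 against 5429, 6251 and 8136 and was 1.85-fold lower (adjusted p = 0.0131). Itgb5, another partner of Itgav, was 2.05-fold lower (0.0183) and Itga6, a laminin receptor chain, 1.78-fold lower (0.0288). Under common-median scaling Itgb3 still passed as higher, and Itgav, Itgb5 and Itga6 did not pass. Averaging the probe sets of a gene ended the calls of Itgb3, Itgav and Itgb5. Single arrays left out also ended the calls of Itgb3 (resting NK 3 or IL-15 NK 1), Itgav (IL-15 NK 1), Itgb5 (resting NK 1, IL-15 NK 2 or 3) and Itga6 (resting NK 3 or any IL-15 NK array). The highest adjusted p-values over all alternatives were 0.127, 0.181, 0.123 and 0.249 in that order.

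Of 22 tested genes that switch integrins on or off from inside the cell, 1 rose and 7 fell (median log2 difference -0.40), where 14.2% of all genes were higher and 12.1% lower (median -0.09). Under common-median scaling 1 rose and 2 fell, where 2468 of 12165 genes were higher and 570 lower. The medians were then -0.05 for the list and 0.21 for all genes. Apbb1ip, which encodes RIAM, the adaptor that links Rap1 to talin, read 7019, 6592 and 9728 in resting and 1900, 2213 and 2140 in IL-15 NK cells. It was 3.68-fold lower (limma adjusted p = 0.000206), with a log2 difference of -1.88 that shrank to -0.83 when its probe sets were averaged. Rasgrp2, the exchange factor that loads Rap1 with GTP, read 2419, 2362 and 1550 against 667, 615 and 477 and was 3.57-fold lower (adjusted p = 0.00137). Neither gene's groups overlapped, and both calls held in 17 of 17 alternatives. Cyth1, a cytohesin that binds the Itgb2 tail, was 2.08-fold lower (0.0221), and Sharpin, which restrains integrins, 1.82-fold lower (0.00678). Not every member of the list works in the direction of activation, and the count does not separate them. The Cyth1 call was lost without resting NK array 3 or IL-15 NK array 1 or 3, under common-median scaling and with no filter on low signals. That of Sharpin was lost only under common-median scaling and when its probe sets were averaged. Their limma adjusted p-values reached 0.173 and 0.138 over the alternatives. Talin 1 (Tln1) and kindlin-3 (Fermt3) did not pass, with log2 differences of -0.32 (adjusted p = 0.296) and -0.40 (0.371).

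**Figure D4:**
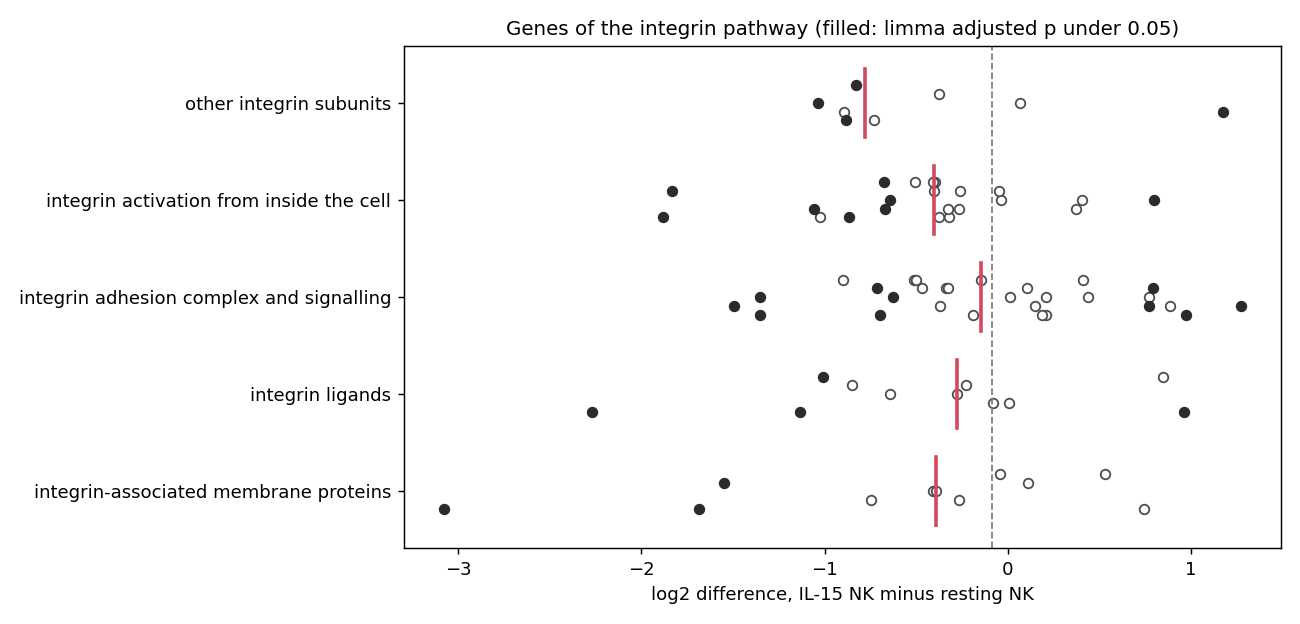
Log2 difference, IL-15 NK minus resting NK cells, of every tested gene of the 5 integrin pathway lists; each point is 1 gene, filled where limma's adjusted p was under 0.05, the red line in each list is its median and the dashed line the median of all genes tested, -0.09. Apbb1ip at -1.88, Rasgrp2 at -1.83 and Tspan32 at -3.08 lie at the lower end of their lists.

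Of 29 tested genes of the adhesion complex and its signalling, 4 rose and 6 fell, where 14.2% of all genes were higher and 12.1% lower. The list's median log2 difference was -0.14 against -0.09 for all genes. Under common-median scaling 8 rose and 2 fell, where 2468 of 12165 genes were higher and 570 lower. Both medians were then 0.21, so the list's median moved with that of all genes. The kinase Syk fell 2.82-fold (limma adjusted p = 0.000381) and vinculin (Vcl), which ties talin to actin, 2.55-fold (0.000757). Both held in 17 of 17 alternatives. Actn1, an actin crosslinker, was 2.55-fold lower (0.0212), and Parvg, the parvin of blood cells, 2.41-fold higher (0.0180). Actn1 was lost without IL-15 NK array 3 and Parvg without resting NK array 3 or IL-15 NK array 1 or 2. Both other scalings, to a common median and by quantiles, also ended the Actn1 call. These calls held in 12 and 13 of 17 alternatives, with limma adjusted p up to 0.148 and 0.169. Among 11 tested ligands 3 fell and 1 rose, against 12.1% of all genes lower and 14.2% higher. Under common-median scaling the balance of the ligands turned, with 1 lower and 2 higher, where 570 of 12165 genes were lower and 2468 higher. Icam1 and Icam2, ligands of LFA-1, were 2.01-fold (0.00722) and 2.20-fold (0.0118) lower. Vcam1, the ligand of VLA-4, read 670, 611 and 1587 in resting NK arrays and 6.7, 17.7 and 26.2 in IL-15 NK arrays, all under the floor, against 11064 to 17268 in splenocytes. Its fold was at least 4.82 downwards (limma adjusted p = 0.00164), and it was tested through the resting NK arrays alone. Splenic macrophages express Vcam1, and their part in its resting NK signal was not tested. Cdh1 (E-cadherin), the ligand of CD103, was at least 1.95-fold higher (0.0211), with 3 of 3 IL-15 and 1 of 3 resting arrays above the floor. The Cdh1 call was lost without resting NK array 1 or 3 or IL-15 NK array 1 or 2 (adjusted p up to 0.132 over the alternatives). Icam1 and Icam2 did not pass without resting NK arrays 1 and 2 or under common-median scaling (up to 0.0663 and 0.135).

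Of 11 membrane proteins that associate with integrins, 0 rose and 3 fell, where 14.2% of all genes tested were higher and 12.1% lower. Over both directions the share that passed lay near the 26.3% of all genes. Under common-median scaling 2 rose and 3 fell, where 2468 of 12165 genes were higher and 570 lower. Tspan32, a leukocyte tetraspanin, read 4105, 3384 and 4436 in resting and 448, 503 and 453 in IL-15 NK arrays, with splenocytes at 4182 to 5818, so that the 3 IL-15 arrays stood alone. Tspan32 was 8.45-fold lower (adjusted p = 3.17e-05) and held in 17 of 17 alternatives. Cd81 was at least 3.22-fold lower (0.0283) and Plaur, the urokinase receptor, at least 2.93-fold lower (0.00952). For Cd81 0 of 3 IL-15 NK arrays were above the floor, so it was tested through the resting NK arrays alone. Cd81 was at 1118, 745 and 233 in resting NK arrays and at 10577 to 14061 in splenocytes. The Cd81 call was lost when any IL-15 NK array was left out, under scaling by quantiles and with no filter on low signals. It held in 7 of the 12 alternatives in which it was tested (limma adjusted p up to 0.214). The part of other spleen cells in the Cd81 signal was not tested.

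Against splenocytes the lists held genes higher and lower in NK cells. For resting NK cells, 2 of 9 other subunits were higher and 2 lower, 6 of 23 activation genes higher and 3 lower, 11 of 31 adhesion complex genes higher and 8 lower, 1 of 19 ligands higher and 6 lower, and 2 of 11 associated proteins higher and 5 lower. Of all genes tested 17.1% were higher and 21.5% lower, 38.6% in all, and the shares of other subunits and activation genes that passed lay near it. Apbb1ip was 12.01-fold higher in resting NK cells (limma adjusted p = 0.000101) and 3.26-fold higher in IL-15 NK cells (0.00406). When the probe sets of Apbb1ip were averaged its log2 differences were 0.58 (0.112) and, with the sign turned, -0.25 (0.458). Itga5, the fibronectin receptor chain, was at least 3.62-fold higher (0.00128) in resting NK cells and at least 2.79-fold (0.00317) after IL-15. Tes and Zyx, proteins of focal adhesions, were 3.68-fold (6.41e-05) and 3.55-fold (0.000541) higher in resting NK cells, while Actn1 was 8.51-fold lower (0.000451). Averaging probe sets ended the Zyx call (0.0548) and a floor at the 60th percentile the Itga5 call in resting NK cells (0.151). Rasgrp2 was 5.91-fold lower in IL-15 NK cells than in splenocytes (0.000161).

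For each integrin the genes with the most similar course over the 10 arrays were sought among 11132 genes, by the root mean square difference of log2 signals after each gene's mean was taken off. Itgal and Itgb2 shared their closest gene, Osbpl11, at 0.12 for both. Itgax was closest to Dsp at 0.12, Itgb7 to Selenon at 0.17 and Itgb1 to Nol11 at 0.19. Itga4 was closest to Klhl24 and Foxn3, both at 0.23, and Itgam to Ifih1 at 0.23. The distance was larger for Itga2, closest to Iffo2 at 0.24, Itgae, closest to Ifi209 at 0.29, and Itga1, closest to Mapkapk3 at 0.32. The 10 arrays share groups and preparation, so these distances are descriptions of the arrays.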

How the data were processed

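Affymetrix MOE430_2 arrays (1 colour) measured RNA of the 3 groups. Values deposited by the authors are linear intensity, 1 per probe set and array. The submitters' processing notes name GCOS 1.4, and neither labels nor file state how probes were summarised or which scaling target was set. The mean after trimming 2% at each end was 1500.01 on every array in the deposited table, so no further scaling was done. Such scaling gives relative levels within an array.

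The floor, 179.8, was the median over arrays of the 40th percentile. Signals under it were raised to it before taking log2. Of values from 49 probe sets of unrelated tissues, 20.8% lay above it (6.1% to 30.6% per array). Control probe sets (64) were left out. The platform annotation assigned 1 symbol to 34945 probe sets (34741 of them in RefSeq by Entrez ID), more than 1 to 932 and none to 9160. Each gene was represented by its brightest probe set (highest mean log2 signal) and tested if above the floor on at least 3 arrays compared. Genes at the floor on an array of the dimmer group get a fold given as "at least". Array number limits the precision.

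Tests used limma 3.58.1 in R 4.3.3 (lmFit, eBayes with intensity trend, 2-sided, Benjamini-Hochberg over all genes tested, threshold 0.05). NK groups were compared over their 6 arrays. With splenocytes, the 3 groups shared 1 variance, chips were averaged in pairs under each of 3 pairings and the largest p kept, and splenocyte means and SDs are over 4 chips. The code was tested on simulated data. Genes named beside the integrins are, per list, up to 4 passing genes with the largest differences; Tln1 and Fermt3 were named for their role after their values were seen. Alternatives covered floor, filter, log offset, scaling, probe-set summary, variance model, replicate block and arrays left out. The members and lists were chosen with earlier results of these data known.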

Additional observations from a re-analysis of the deposited data

Results flagged for a closer look

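In 10 groups of 4 splenocyte chips, 1 for each integrin, 1 chip stood apart from the rest of its group: for Itgb1, chip 1 was lowest at 2841 signal units, against 3096 to 3144 on the other 3. Its gap to the nearest chip was 0.848 of the range and passed Dixon's 95% limit for 4 values. Chance alone passes it in about 1 in 20 groups. All 4 chips lay below every NK array for this probe set.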

How the results depend on the processing

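Of 541 recomputed log2 differences of single integrins, 480 kept their direction and their side of the threshold, 44 no longer passed, 16 newly passed and 1 turned sign: Itgb7 between NK groups, to -0.0401 (adjusted p = 0.919) without IL-15 NK replicate 2, in a range of -0.0401 to 0.37 over single arrays left out. For IL-15 NK against resting NK, 3003 genes passed; this became 1646 with no filter on low signals and 6373 with every probe set tested singly. Integrins higher were 1 and became 0 with no filter, and 2 with common-median scaling, with the replicate block and with variance shared with splenocytes. Integrins lower were 7 and became 2 with no filter and 3 with common-median scaling. With arrays left out, genes passing ranged from 1963 to 3241, integrins higher from 1 to 2 and integrins lower from 3 to 7; without resting NK replicates 1 and 2 they were 2442, 1 and 5. The 3 integrins still lower without IL-15 NK replicate 1 were Itga4, Itgae and Itgam. Between resting NK cells and splenocytes, 10885 genes passed singly against 4993, and 1 integrin was lower, Itgae, with the floor at the 60th percentile or 4 chips as 4 samples. Between IL-15 NK cells and splenocytes, 11501 passed singly against 5524. The cause of these moves was not tested. Singly tested probe sets are more numerous than genes, and removing the filter adds genes to both the fit and the adjustment. Itga1 could not be tested against splenocytes with an NK array left out, since too few arrays were then above the floor. Where a chip was left out, the value is that of the pairing with the largest p.

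NK replicate numbers are shared between groups. Deviations of same-numbered arrays from their group means correlated at 0.10, 0.28 and 0.07 for numbers 1 to 3. Arrays of different numbers correlated at -0.11, 0.01, -0.22, -0.07 and -0.21, and at 0.15 for IL-15 NK array 1 with resting array 3. The same-number values were not all above 0.1, so the numbers were not taken as a pairing, which the labels do not state either way. With the replicate block 3421 genes passed, Itgb1 passed as higher (adjusted p = 0.00543) and Itga2 did not pass (0.0534). Depth limits are those of signal over background: Itga1, Itga2, Itgam and Itgae read within a few-fold of the floor in at least 1 group.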
